A study of Homo sapiens with 4 samples.

Results

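The EGR and AP-1 genes encode transcription factors that many cells switch on quickly when a signal arrives. They were read here in HepG2, an established cell line from a human liver cancer, on 4 arrays taken at 0, 2, 6 and 12 h of treatment with APRIL. Of the 10 genes chosen by symbol (EGR1, EGR2, EGR3, FOS, FOSB, FOSL1, FOSL2, JUN, JUNB and ATF3), 9 had probe sets with exactly 1 gene symbol, 20 probe sets in all, out of 19775 genes and 41091 such probe sets. EGR2 is not analysed here. The 10 genes were chosen with earlier results of these data known. At 12 h all 9 genes lay above their 0 h value and 4 of them, EGR1, JUN, ATF3 and JUNB, lay 2-fold or more above it. Over all genes 51.7% lay above their 0 h value and 0.946% by 2-fold or more. At 2 h and 6 h none of the 9 had moved by 2-fold in either direction. Nor had most genes: at most 0.283% lay that far to either side at these times. EGR1 stood highest, 7.53-fold above 0 h.

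Each time was read on 1 Affymetrix U133 Plus 2.0 array of total RNA. The 0 h cells were untreated, and the 2, 6 and 12 h cells had received 200 ng/ml APRIL, a cytokine of the tumour necrosis factor family. All cells, the 0 h cells included, had been kept without serum beforehand. The series' design text gives 24 h for this and the labels' protocols say overnight. The series asks how gene expression in this line changes over the time course. There were no replicates, so there is no test and no p-value, and every difference is one between 2 arrays. Any untreated culture harvested at 2, 6 or 12 h is not analysed here, so the effect of APRIL and that of time without serum cannot be told apart. Precision is limited by there being only 4 arrays. In RNA from a whole culture, a change in the number of cells that express a gene and a change in RNA per cell cannot be told apart either.

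The deposited log2 values were centred, each probe set on its own median, so they hold no expression level. A value of 0 is the middle of that probe set, not absence. For the same reason the middle pair of values mirrors itself around 0 in every probe set, as 0.03 and -0.03 do, and this mirroring carries no information. Whether hepatocyte markers are expressed cannot be read from such values. Of 8 hepatocyte markers 7 could be read, and none moved by 2-fold, with 12 h over 0 h ratios from -0.17 to 0.46. Of 12 markers of immune cells, fibroblasts and endothelium, 11 could be read and none was past 2-fold against 0 h (at 12 h from -0.30 to 0.89, highest for PDGFRB). Between 6 h and 12 h PDGFRB was past 2-fold, at 1.39, and it was the only one of the 11. The bacterial RNAs added before hybridization, read by 18 probe sets, were lower on the 12 h array than on the 0 h array, with a median log2 difference of -0.35 (0.012 for the 2 h array and 0.055 for the 6 h array). Relative to them every 12 h over 0 h ratio below would be 0.35 higher and every 12 h over 6 h ratio 0.43 higher, and over all genes the 187 past 2-fold higher and 195 lower at 12 h would become 694 and 76. The part of this offset in the results was not tested. The 3′ probe set of the beta-actin control, relative to its 5′ probe set, differed from the 0 h array by -0.24 (2 h), 0.38 (6 h) and 0.029 (12 h), and that of GAPDH by -0.050 to 0.053.

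AP-1 is a dimer of a JUN protein with a FOS, JUN or ATF protein, joined through leucine zippers, and it binds short sites such as TGACTCA. EGR proteins bind GC-rich sites such as GCGTGGGCG through zinc fingers. Growth factors, cytokines and stress reach both families through MAP kinases, which act on factors already bound at the promoters of these genes, such as SRF and the ternary complex factors at the CArG box and the CREB and ATF proteins at the cyclic AMP element. In liver, FOS, JUN, JUNB, EGR1 and ATF3 are known as early genes of regeneration and injury, and their transcripts are short-lived.

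The promoters of the 4 genes past 2-fold at 12 h are shown because these genes stood high on the same array. Those of FOS and FOSB are shown as examples of genes that did not reach 2-fold. FOSL2 did not reach 2-fold either, and its promoter was searched but is not shown. Each run is the 250 bases before the first start that RefSeq lists in GRCh38.p14, 5′ to 3′ on the strand of the gene. ATF3 has 2 listed starts, and the run before the downstream one is not shown. Capitals mark matches, on either strand, to the AP-1 site TGACTCA, the cyclic AMP element TGACGTCA, the related TGACATCA, the CArG box to which SRF binds, the EGR sites GCGTGGGCG and GCGGGGGCG, or the TATA element TATAAA. The core of the cyclic AMP element, TGACG, was also searched on its own and is likewise in capitals. The core is part of the full element, a TATA element can lie within a CArG box, and TGACATCA was added after the sequences had been seen.
EGR1, chr5:138465229-138465478, plus strand: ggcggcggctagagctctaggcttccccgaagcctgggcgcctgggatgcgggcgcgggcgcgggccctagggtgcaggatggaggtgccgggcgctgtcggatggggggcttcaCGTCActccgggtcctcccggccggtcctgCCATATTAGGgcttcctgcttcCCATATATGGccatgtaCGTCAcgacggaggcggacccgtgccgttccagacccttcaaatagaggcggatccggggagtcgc
JUN, chr1:58784048-58784297, minus strand: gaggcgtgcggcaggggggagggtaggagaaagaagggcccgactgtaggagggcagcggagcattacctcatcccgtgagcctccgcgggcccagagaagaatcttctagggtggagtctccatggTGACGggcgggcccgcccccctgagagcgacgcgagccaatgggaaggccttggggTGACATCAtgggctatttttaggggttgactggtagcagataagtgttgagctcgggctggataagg
JUNB, chr19:12791236-12791485, plus strand: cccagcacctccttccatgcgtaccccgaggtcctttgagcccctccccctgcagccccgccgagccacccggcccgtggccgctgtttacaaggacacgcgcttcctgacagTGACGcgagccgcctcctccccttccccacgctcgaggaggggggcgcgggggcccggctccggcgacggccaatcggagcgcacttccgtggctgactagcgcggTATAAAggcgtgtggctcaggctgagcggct
ATF3, chr1:212565157-212565406, plus strand: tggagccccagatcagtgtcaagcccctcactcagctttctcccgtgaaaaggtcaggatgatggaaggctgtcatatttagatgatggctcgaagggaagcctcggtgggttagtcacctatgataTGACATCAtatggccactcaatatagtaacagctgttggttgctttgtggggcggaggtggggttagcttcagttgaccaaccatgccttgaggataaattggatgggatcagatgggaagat
FOS, chr14:75278578-75278827, plus strand: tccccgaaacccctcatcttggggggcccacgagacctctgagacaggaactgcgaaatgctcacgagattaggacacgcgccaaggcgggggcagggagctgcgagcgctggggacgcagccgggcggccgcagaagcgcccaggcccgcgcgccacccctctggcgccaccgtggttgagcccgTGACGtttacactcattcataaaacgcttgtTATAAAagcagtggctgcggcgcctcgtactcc
FOSB, chr19:45467746-45467995, plus strand: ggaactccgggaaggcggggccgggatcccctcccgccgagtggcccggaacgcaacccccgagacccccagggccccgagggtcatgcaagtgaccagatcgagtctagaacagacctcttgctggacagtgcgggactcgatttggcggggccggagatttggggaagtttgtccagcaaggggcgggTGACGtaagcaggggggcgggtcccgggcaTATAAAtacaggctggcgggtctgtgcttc

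RefSeq promoters were at hand for 8 of the 10 genes, FOSL2 and EGR2 included. Within these 250 bases EGR1 was the only one of the 8 with a CArG box. It had 2, CCATATTAGG from 105 and CCATATATGG from 83 bases before the start. Over all 35116 promoters of this length, 1.16% held one. Bases further upstream were not searched, so no gene is shown to lack a CArG box. The 35116 promoters are counted per start, and a gene can have several, whereas each of the 8 genes counts with its first listed start alone. TGACG was found in 6 of the 8 (EGR1, FOS, FOSB, FOSL2, JUN and JUNB) against 21.2% of all promoters. TGACATCA stood in JUN, from 67 bases before the start, and in ATF3, from 123 bases before the upstream of its 2 listed starts, against 2.37% of all. TATAAA was in FOS, FOSB and JUNB, against 10.7% of all. No window of the 8 held TGACTCA, TGACGTCA, GCGTGGGCG or GCGGGGGCG, which stood in 4.20%, 1.65%, 0.720% and 4.72% of all promoters. FOSB, which had the lowest 12 h over 0 h ratio of the 9 genes, also held TGACG. A match is a description of the letters in these windows only, and it is neither a site shown to be bound nor a cause of any value here.

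EGR1, an early-response activator and the best-known EGR protein, showed the highest ratio among the 9 genes. Probe set 201694_s_at read -0.11 (0 h), -0.19 (2 h), 0.11 (6 h) and 2.81 (12 h). Probe set 201693_s_at read 0.0084, -0.15, -0.0084 and 1.98 at the same times, and 227404_s_at read -0.60, -0.21, 0.21 and 2.44. All 3 were far higher at 12 h than on any other array. They differed in the earlier hours: 227404_s_at was lowest at 0 h and stood 0.81 above it at 6 h, where the others were at -0.017 and 0.22. As a gene, taken as the median over probe sets, EGR1 had a 12 h over 0 h log2 ratio of 2.91 (7.53-fold, SD 0.59 over 3 probe sets), the 2nd highest of 19775 genes. Its probe sets lay at 1.97, 2.91 and 3.05. Between 6 h and 12 h the ratio was 2.23 (SD 0.36 over 3 probe sets), the 5th highest. All 3 probe sets carry the suffix _s_at, which marks probes that can match several transcripts.

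EGR3, a relative of EGR1 with the same kind of zinc fingers, known for roles in lymphocytes and muscle spindles, stayed close to its median. Its probe set read 0 (0 h), -0.046 (2 h), 0 (6 h) and 0.25 (12 h). The 12 h array was again the highest, but by only 1.19-fold over 0 h. EGR4 was at 0.27 (SD 0.21 over 3 probe sets) at 12 h, and WT1, which has similar zinc fingers, at 0.16 (SD 0.053 over 2). NAB1 and NAB2 are co-repressors of EGR proteins, and NAB2 is itself an EGR1 target. NAB2 was at 0.29 at 6 h and 0.25 at 12 h, and NAB1 at -0.10 at 12 h. So of these 4 relatives and co-repressors none was past 2-fold at any time, with a median of 0.21 at 12 h. Few genes of any kind were: at most 0.986% lay that far to either side of 0 h at any time.

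JUN, the central AP-1 subunit, is read by 4 probe sets. Probe set 201466_s_at read -0.41 (0 h), -0.25 (2 h), 0.25 (6 h) and 1.66 (12 h), and 201464_x_at read -0.13, -0.031, 0.031 and 1.497. Probe set 201465_s_at read -0.33, -0.088, 0.088 and 0.88, and 213281_at read -0.12, 0.070, -0.070 and 0.39. All 4 were lowest at 0 h and highest at 12 h. The sizes differed: 12 h over 0 h was 2.07, 1.63 and 1.21 for the first 3, and 0.51 for 213281_at, the only one without a suffix for several transcripts. The gene's ratio was 1.42 (2.67-fold, SD 0.66 over 4 probe sets), rank 47 of 19775. At 2 h all 4 were above 0 h, by 0.099 to 0.24 with a median of 0.17, and at 6 h by 0.046 to 0.65 with a median of 0.29. The spread of all genes, as a robust SD, was 0.16 between the 0 h and 2 h arrays.

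JUNB, a JUN relative that can restrain JUN at some promoters, has 1 probe set, which carries no such suffix. It read -0.076 (0 h), -0.031 (2 h), 0.031 (6 h) and 1.12 (12 h). The first 3 arrays were within 0.11 of each other and the 12 h array stood 1.08 above the highest of them. Against 0 h this was 1.19, or 2.28-fold, rank 102 of 19775.

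**Figure D1:**
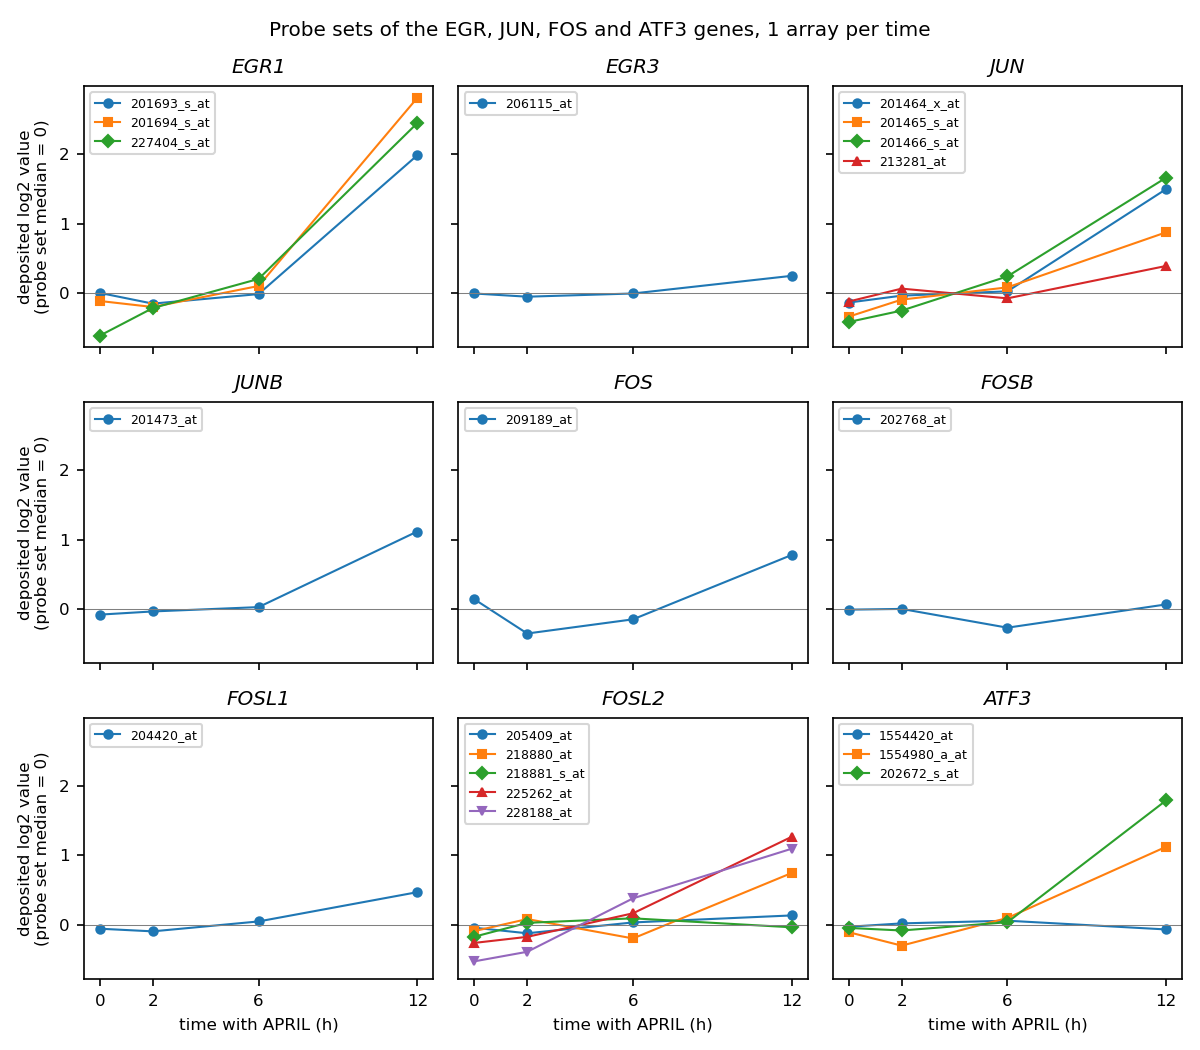
Deposited log2 value of each probe set (vertical axis, relative to its own median) against time with APRIL in hours, 1 panel per gene and 1 line per probe set, 1 array per time and so no error bars. EGR1, JUNB and most probe sets of JUN, ATF3 and FOSL2 lay between -0.60 and 0.38 through 6 h and were high at 12 h. FOSB and EGR3 stayed between -0.26 and 0.25.

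FOS, the first-described partner of JUN in AP-1, differed in the early hours. Its single probe set read 0.14 (0 h), -0.35 (2 h), -0.14 (6 h) and 0.78 (12 h). FOS was thus lower than at 0 h on both the 2 h and the 6 h array, by -0.49 and -0.29, and 0.63 higher at 12 h (1.55-fold). At 2 h 99.1% of genes had a higher ratio than FOS. The ratio of 12 h over 6 h was 0.92, or 1.90-fold.

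FOSB, close in sequence to FOS, read -0.0053 (0 h), 0.0053 (2 h), -0.26 (6 h) and 0.070 (12 h). Its 12 h over 0 h ratio of 0.075 was within the spread of all genes (robust SD 0.24 in that comparison). FOSL1 (Fra-1), a FOS relative known for its role in invasive tumour cells, read -0.052, -0.090, 0.052 and 0.47. The 12 h array was the highest by 0.42, and the ratio over 0 h was 0.52 (1.44-fold). FOSB and FOSL1 each rest on 1 probe set.

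FOSL2 (Fra-2), the other late FOS relative, is read by 5 probe sets that differed in shape. Probe set 228188_at read -0.52 (0 h), -0.38 (2 h), 0.38 (6 h) and 1.10 (12 h), and 225262_at read -0.26, -0.17, 0.17 and 1.27. Probe set 218880_at read -0.086, 0.086, -0.19 and 0.75. These 3 were highest at 12 h, by 1.62, 1.52 and 0.83 over 0 h. Probe set 205409_at, at -0.038, -0.12, 0.038 and 0.14, was also highest at 12 h, but by only 0.18 over 0 h. By contrast 218881_s_at read -0.17, 0.032, 0.097 and -0.032, and was highest at 6 h. The gene's median of 0.83 (1.78-fold, SD 0.71 over 5 probe sets) therefore lies between a pair past 2-fold and a pair near 0. The part of the transcript that each probe set reads is not used here.

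ATF3, a stress-induced member of the ATF family that can pair with JUN proteins, was likewise divided. Probe set 202672_s_at read -0.041 (0 h), -0.078 (2 h), 0.041 (6 h) and 1.79 (12 h). Probe set 1554980_a_at read -0.10, -0.29, 0.10 and 1.12. Both were high at 12 h alone. The third, 1554420_at, read -0.024, 0.024, 0.063 and -0.063, and was the only one of the 20 probe sets with its lowest value at 12 h. As a gene, ATF3 was at 1.23 at 12 h over 0 h (2.34-fold, SD 0.95 over 3 probe sets, which lay at -0.039, 1.23 and 1.83).

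Seen together, 0 of 9 genes were at or past 2-fold higher at 2 h, against 0.0354% of all genes, and 0 of 9 at 6 h, against 0.101%. None was 2-fold lower, against 0.0101% of all genes at 2 h and 0.283% at 6 h. At 2 h 4 genes were above and 5 below 0 h, from -0.49 (FOS) to 0.17 (JUN), with a median of -0.037 beside 0.016 for all genes. At 6 h 6 were above and 2 below, with EGR3 at 0, from -0.29 (FOS) to 0.29 (JUN), and the median was 0.10 beside 0.047. By probe set, 3 of 20 were at or past 1.5-fold higher at 6 h, 1 each of EGR1, FOSL2 and JUN, against 2.15% of all probe sets. Each of these 3 had its lowest value at 0 h, and other probe sets of the same genes did not reach 1.5-fold.

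**Figure D2:**
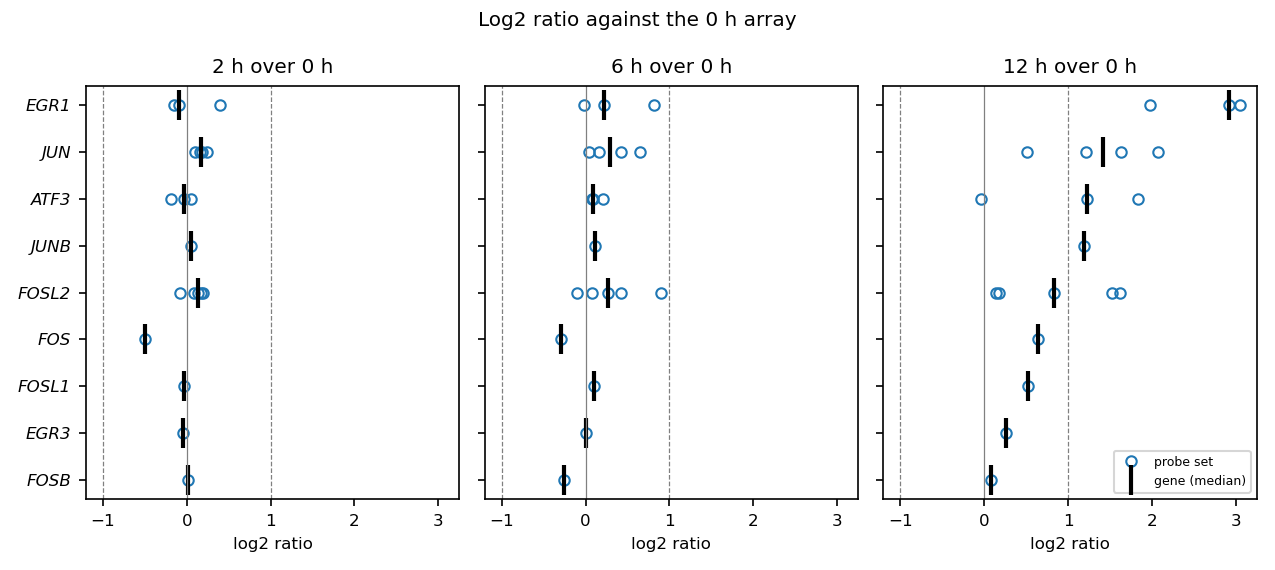
Log2 ratio against the 0 h array (horizontal axis) at 2, 6 and 12 h for each gene (rows, in the order of the 12 h ratio). Circles are probe sets, black bars the median per gene, and dashed lines mark 2-fold. No gene passed a dashed line at 2 h or 6 h, and at 12 h the bars ran from 0.075 for FOSB to 2.91 for EGR1.

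At 12 h 4 of 9 genes (44.4%) were at or past 2-fold higher than at 0 h, against 0.946% of all genes, and none was 2-fold lower, against 0.986%. The median over the 9 was 0.83 (SD 0.85 over the genes) beside 0.010 for all 19775. At 1.5-fold the count was 6 of 9, with FOSL2 and FOS added, against 4.46% of all genes. By probe set, 11 of 20 were past 2-fold (55%), against 1.56% of all.

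From the highest ratio down, the order at 12 h was EGR1, JUN (1.42), ATF3 (1.23), JUNB (1.19), FOSL2 (0.83), FOS (0.63), FOSL1 (0.52), EGR3 (0.25) and FOSB (0.075). JUN, ATF3, JUNB and FOSL2 are closer to each other than the SD over their own probe sets (0.66 for JUN, 0.95 for ATF3, 0.71 for FOSL2), so their order is not separated. The lowest EGR1 probe set, at 1.97, lay below the highest of JUN, at 2.07. FOS and FOSL1 differ by less than the robust SD of all genes in this comparison (0.24), as do EGR3 and FOSB. Without probe sets that end in _s_at or _x_at, EGR1 has no value, JUN is at 0.51 and ATF3 at 0.59, and FOSL2 at 1.18 and JUNB are the 2 of 8 genes left past 2-fold, against 1.04% of genes read that way. Without those that end in _a_at too, which match several transcripts of 1 gene, ATF3 rests on 1554420_at and is at -0.039, and FOSL2 and JUNB are again the 2 past 2-fold, against 1.08%.

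**Figure D3:**
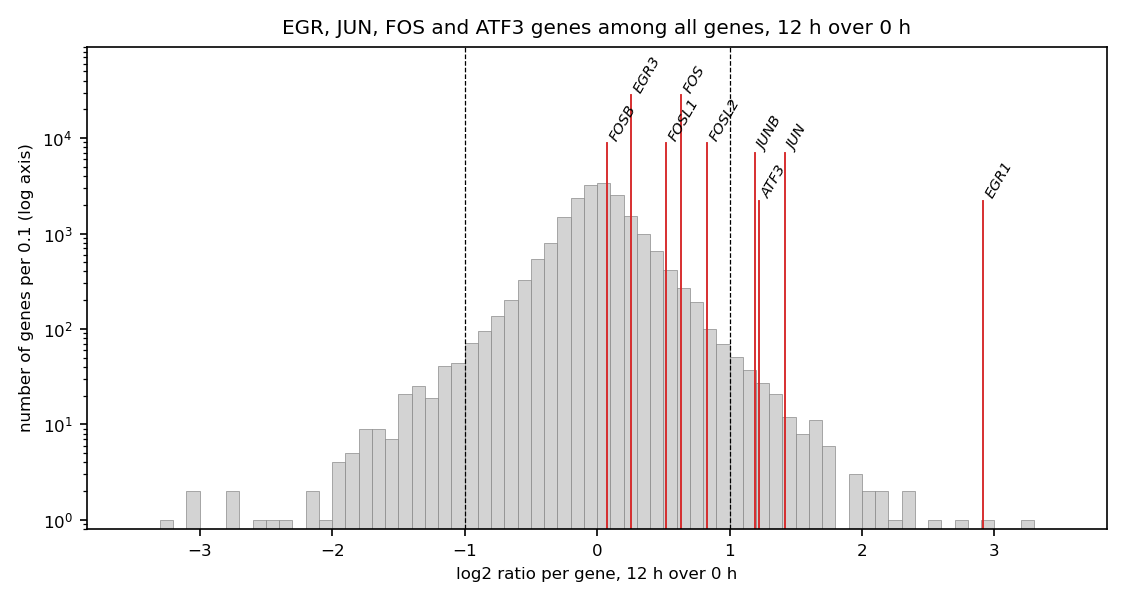
Number of genes per 0.1 of log2 ratio for 12 h over 0 h (grey bars, log axis, 19775 genes), with a red line at the ratio of each EGR, JUN, FOS and ATF3 gene and dashed lines at 2-fold. EGR1 at 2.91 sits at the far right edge, JUN, ATF3 and JUNB just past 2-fold, and the other 5 between 0.075 and 0.83.

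The 12 h values did not rest on the 0 h array alone. The 12 h array was the highest in 18 of 20 probe sets (90%), against 29.6% of all probe sets. In 9 of 20 (45%) the 12 h value stood 2-fold or more above the highest of the other 3 arrays, against 0.487% of all. These 9 were all 3 of EGR1, 2 each of JUN and ATF3, and 1 each of JUNB and FOSL2. Against 6 h the same 4 genes were past 2-fold higher, EGR1 at 2.23, JUN at 1.10, JUNB at 1.08 and ATF3 at 1.02, where 0.799% of all genes were. None was 2-fold lower over that step, against 0.885%. All 9 were above their 6 h value, as 45.1% of all genes were, with a median of 0.92 beside -0.024 for all genes. Over this step the 3′ probe set of the actin control changed by -0.35 relative to its 5′ probe set, and that of GAPDH by -0.10, and their part in the result was not tested. This comparison shares the 12 h array with the one against 0 h. Without probe sets that end in _s_at or _x_at, JUNB was the only gene past 2-fold over 6 h, against 0.772% of genes read that way. The same held without _a_at too, against 0.768%.

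Other factors and genes around these families were taken from 6 lists, chosen with earlier results of these data known, of which 66 of 76 genes could be read and the other 10 are not analysed here. None of the 66 was past 2-fold at 2 h or 6 h against 0 h. Over all genes 0.0354% were past 2-fold higher and 0.0101% lower at 2 h, and 0.101% and 0.283% at 6 h. At 12 h 8 were higher, 1 was lower and 57 were under 2-fold, with a median of 0.24. At that time 0.946% of all genes were past 2-fold higher and 0.986% lower. The shares at each time are also the background for the counts in each list.

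Among 10 further AP-1 partners and small bZIP factors the median at 12 h was 0.36, with 7 above 0. MAFF, a small MAF protein without an activation domain, was at 1.64 (3.13-fold, SD 0.064 over 2 probe sets) and the only one past 2-fold. MAFG followed at 0.96 (SD 0.20 over 2) and JDP2, a repressor that pairs with JUN, at 0.91 (SD 0.068 over 2). Of 12 kinases and factors that act upstream, none was past 2-fold at any time. MAP2K4, a kinase above JNK, was at 0.54 at 12 h (SD 0.17 over 2 probe sets), MAP2K1, a kinase above ERK, at 0.48 and MAPK8, the kinase JNK1, at 0.31 (SD 0.098 over 5). These are transcript ratios and do not read kinase activity.

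Of 20 other immediate-early genes 4 were past 2-fold higher at 12 h, and the median was 0.41. The matricellular gene CCN1 was at 2.00 (SD 0.13 over 2 probe sets), IER3 at 1.98, CSRNP1 at 1.15 and IER5 at 1.14, the last 3 with 1 probe set each. CSRNP1 stood at 0.60 and IER5 at 0.47 already at 6 h, whereas CCN1 was at -0.32 there. At 2 h these 4 lay between 0.037 and 0.16.

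Textbook AP-1 target genes pointed in both directions at 12 h: of 13 read, 7 were above and 6 below 0, with a median of 0.025. CXCL8, the chemokine interleukin 8, was at 2.56 (SD 0.23 over 2 probe sets) and PLAU, the urokinase protease, at 1.51 (SD 0.32 over 2). HMOX1, the haem-degrading enzyme, was at -1.47 on 1 probe set. The collagenase gene MMP1 was at 0.025 and the cyclin gene CCND1 at -0.43. Of 8 textbook EGR1 targets, 6 were above 0 with a median of 0.19, and ICAM1, an adhesion molecule also driven by NF-kB, was the only one past 2-fold, at 1.31 (SD 0.55 over 3 probe sets). F3, tissue factor, was at 0.45 and TGFB1 at 0.43, the latter with probe sets at -0.094 and 0.96. The growth factor genes PDGFA and PDGFB were at -0.28 and -0.037.

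**Figure D4:**
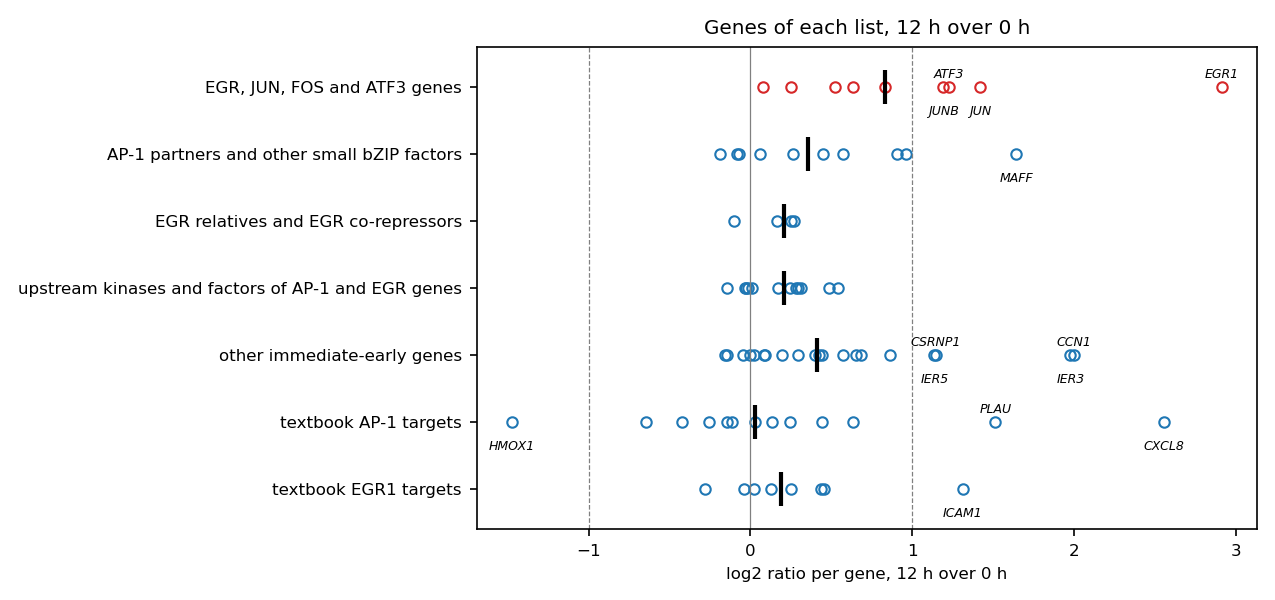
Log2 ratio of 12 h over 0 h (horizontal axis) for each gene (circles) of the EGR, JUN, FOS and ATF3 group (red) and of 6 further lists (blue), with the median of each as a black bar and 2-fold as dashed lines. The red median, 0.83, is beside medians from 0.025 to 0.41 in the other lists, and genes past 2-fold are named.

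The genes outside the group with the most similar time course were sought by the distance over the 3 log2 ratios against 0 h. For EGR1 these were SLC22A15 (distance 0.31), with ratios of 0.046, 0.038 and 2.70 at 2, 6 and 12 h, then CXCL8 (0.41) and SLC7A10 (0.62). For JUN they were COL2A1 (0.090), NAGS (0.10) and FCGBP (0.13). JUNB was nearest to FAM20A (0.067), ZDBF2 (0.085) and RNF24 (0.096), and ATF3 to PRIMA1 (0.066), FAM20A (0.072) and GRB14 (0.084). EGR1 had no neighbour as near as those of the other 3, and only SLC6A14 had a higher 12 h ratio. Each time course has 3 ratios that share the 0 h array, so likeness describes these 4 arrays only.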

How the data were processed

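The members and gene lists were chosen with earlier results of these data known. The log2 values that the authors deposited cover 54675 probe sets. Per the submitters' processing notes they come from RMA (no version given), which equalises the arrays' distributions. In the deposited table every probe set has a median of 0 within 1e-06. The sources used here do not name what centred them. Neither base 2 nor the direction is stated: base 2 was taken because RMA uses it, and higher was taken as more transcript. Column medians were -0.0050, 0, 0.011 and -0.0043 at 0, 2, 6 and 12 h.

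Probe sets were named from the platform annotation, with symbols updated to RefSeq by gene identifier. Probe sets with 1 symbol were kept, without Affymetrix controls. Ratios were differences of the deposited values, summarised per gene by the median probe set and counted at 2-fold (log2 ratio 1). An SD over probe sets covers measurement within these arrays, not variation between cultures. Genes named were all members, list genes past 2-fold (or the largest, up to 3 a list) and the 3 nearest genes of each member past 2-fold. MMP1, CCND1, PDGFA, PDGFB and NAB1 were named after their values were seen. Alternatives were other centrings, other probe set summaries, other thresholds, and the other 3 arrays' mean as reference. Python 3.11.15 with pandas 2.3.3 was used, tested on simulated data.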

Additional observations from a re-analysis of the deposited data

How the results depend on the processing

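With 1 array per time nothing could be left out within a group, and no p-value exists to change. Of the alternative values for the counts and medians over the genes, 47 stayed within 1.5 times the count or within the robust SD of all genes (0.16), and 15 did not. Leaving out probe sets that end in _s_at or _x_at reads 8 genes. The count past 2-fold became 2 at 12 h over 0 h and 1 at 12 h over 6 h, in place of 4 and 4. Over all genes read that way the shares were 1.04% and 0.772%. The medians of the 8 genes were 0.56 and 0.46. EGR1 drops out, since its 3 probe sets are all of that kind. Leaving out _a_at as well, an alternative chosen after seeing the data, gave the same counts of 2 and 1, against 1.08% and 0.768%. The medians were then 0.52 and 0.44. This alternative turned ATF3, then on 1 probe set, to -0.039 at 12 h over 0 h and -0.13 at 12 h over 6 h. No other gene past 2-fold was reversed by any alternative. At 3-fold 1 gene, EGR1, was left of the 9 in both 12 h over 0 h and 12 h over 6 h. The share of all genes past 3-fold was not counted, but it can be bounded from JUN, which was under 3-fold. Of all genes 0.233% stood above JUN at 12 h over 0 h and 0.536% at 12 h over 6 h, so at most these shares were past 3-fold. Centring on the bacterial RNAs moved the medians to 1.19 at 12 h over 0 h and 1.36 at 12 h over 6 h, with 5 and 6 genes past 2-fold, against 3.51% and 3.71% of all genes. Taking each gene's widest-ranging probe set gave a median of 1.19 at 12 h over 0 h. That choice favours large ratios in any gene by construction, and the median of all genes under it was not computed. With the other 3 arrays' mean as reference the medians were -0.39 at 2 h and -0.14 at 6 h. That mean holds the high 12 h array, so both fall by construction. No paired analysis was possible because each time has 1 array. Without levels, signal over background could not be read, so a small ratio may belong to a dim probe set.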
